A study of Homo sapiens with 32 samples.

Results

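MDM2, MDM4, TP53INP1, ZMAT3, PLK2, SESN1, BTG2, GADD45A and FAS are genes that control p53 or respond to it, and their transcripts were followed in MM.1S, an established human multiple myeloma cell line. They were listed by gene symbol with earlier results of these data known, so the choice is not independent of the data, and all 9 were found among the 24249 gene IDs of the expression table. The tumour suppressor p53 is a transcription factor that is held low by MDM2, which marks it for destruction by the proteasome. When DNA damage or other stress frees p53 from MDM2, it binds paired short sequences near its target genes, MDM2 included, so that the inhibitor is part of a feedback loop. Carfilzomib (Cfz) blocks the proteasome, and all-trans retinoic acid (ATRA) activates nuclear retinoic acid receptors. MM.1S is generally described as having functional p53. The protein was not measured here, and transcript levels do not give its amount or activity.

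The 4 treatments were compared in MM.1S cells, all of which began with a 1 h pulse and continued for 12 h in fresh medium. ATRA+Cfz cells (n = 1 library) were pulsed with Cfz and then kept in 10 µM ATRA. ATRA cells (n = 3) were pulsed with DMSO, the solvent, and then kept in 10 µM ATRA. Cfz cells (n = 1) were pulsed with Cfz and then kept in DMSO, and DMSO cells (n = 3) had DMSO in both steps. No Cfz dose is given in the labels, and every library came from 1 cell line. Nothing in the labels ties the libraries to separate cultures, and the p-values reflect only how far these libraries scatter, which can be technical.

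Each library held 14136937 to 17155331 reads, and 15827 genes were tested. Levels are FPM, fragments per 1000000 reads without correction for gene length, and so are compared here only within a gene. The 7 plasma cell markers summed to 7074 to 10160 FPM in every library. Per list, the epithelial, stromal, myeloid and T or NK cell markers that were found summed to 0.128 to 3.67 FPM. Those sums hold 4 of 4 epithelial, 3 of 5 stromal, 3 of 5 myeloid and 2 of 5 T or NK cell markers. The B cell markers were not analysed here. DMSO 3 stood apart, since its reads differed from those of DMSO 1 and DMSO 2 by chi-square values per degree of freedom of 11.7 and 12.4, while DMSO 1 and DMSO 2 differed by 1.87. Mitochondrially encoded genes took 5.72% of reads in ATRA+Cfz, 3.89%, 3.67% and 3.72% in ATRA, 5.43% in Cfz, and 4.12%, 4.09% and 5.85% in DMSO 1 to 3. Their part in the results was not tested, and results that turn on DMSO 3 are also given without it. With 1 library each, ATRA+Cfz and Cfz were assumed to vary like the other groups, so differences that involve them have no replicate check. In bulk RNA, a change in the number of cells of a kind and a change in RNA per cell cannot be told apart.

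Promoter sequences are shown for the members in which a p53 site or half-site lay close to a transcription start, because these are the letters p53 is known to read. RefSeq promoter windows (GRCh38.p14, 250 bases before to 50 bases after a start) were matched for 7 of the 9 genes, in 15 windows; TP53INP1 and GADD45A had no matched window. A p53 site was taken as adjacent half-sites with up to 3 of 20 letters off and the C and G of each core kept, a limit set after these windows had been seen. The half-site was searched as the standard p53 decamer on both strands. Such a site lay in 1.12% of all 35116 windows, and a half-site with no letter off in 6.63%. MDM2, FAS and SESN1 each had such a site, though not in all of their windows, and PLK2 had a half-site alone. The shares above are per window, and genes with several windows had more chances of a match. Capitals mark the site or half-site, and a match is a description of the letters, not evidence of binding. Pairs whose core C or G differed were not counted, so unmarked letters, those of the MDM2 window included, may hold further p53 sites. The windows of MDM4, BTG2 and ZMAT3 held neither. Nor did the FAS windows that begin at chr10:88990548 and chr10:88990664, or the SESN1 windows that begin at chr6:109009503 and chr6:109094797. The MDM2 window lies on chr12:68808767-68809066 (plus strand), FAS on chr10:88991181-88991480 (plus strand), SESN1 on chr6:109008939-109009238 (minus strand) and PLK2 on chr5:58460037-58460336 (minus strand).
MDM2: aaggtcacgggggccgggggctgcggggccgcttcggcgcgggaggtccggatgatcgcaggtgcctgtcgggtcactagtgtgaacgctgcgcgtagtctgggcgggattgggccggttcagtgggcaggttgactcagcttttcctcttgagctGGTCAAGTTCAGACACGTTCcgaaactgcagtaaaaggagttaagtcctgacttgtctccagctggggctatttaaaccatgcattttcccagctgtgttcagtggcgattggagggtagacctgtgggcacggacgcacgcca
FAS: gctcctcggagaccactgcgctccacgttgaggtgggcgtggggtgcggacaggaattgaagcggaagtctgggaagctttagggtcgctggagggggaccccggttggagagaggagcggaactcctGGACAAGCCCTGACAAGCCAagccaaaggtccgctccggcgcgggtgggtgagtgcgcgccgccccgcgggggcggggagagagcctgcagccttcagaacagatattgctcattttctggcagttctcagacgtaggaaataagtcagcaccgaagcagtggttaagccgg
SESN1: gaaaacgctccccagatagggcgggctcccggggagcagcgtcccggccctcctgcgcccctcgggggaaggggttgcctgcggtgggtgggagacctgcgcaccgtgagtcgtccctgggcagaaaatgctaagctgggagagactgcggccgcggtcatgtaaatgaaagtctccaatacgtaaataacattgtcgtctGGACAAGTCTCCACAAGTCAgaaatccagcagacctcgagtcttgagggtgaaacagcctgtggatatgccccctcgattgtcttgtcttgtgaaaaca
PLK2: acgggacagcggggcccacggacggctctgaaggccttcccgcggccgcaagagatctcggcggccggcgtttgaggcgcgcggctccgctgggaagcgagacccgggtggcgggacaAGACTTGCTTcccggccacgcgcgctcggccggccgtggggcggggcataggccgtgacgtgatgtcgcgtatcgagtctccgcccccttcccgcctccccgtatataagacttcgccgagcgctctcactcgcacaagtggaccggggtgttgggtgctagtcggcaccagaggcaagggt
The MDM2 site, GGTCAAGTTCAGACACGTTC, begins at base -94 from the start and has 2 letters off; it lies at the downstream promoter, and the windows at the upstream MDM2 start had none. The FAS site, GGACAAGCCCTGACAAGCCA, begins at -122 with 2 letters off, the SESN1 site, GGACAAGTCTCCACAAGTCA, at -49 with 3 letters off, and the PLK2 half-site at -132. These 4 genes did not move alike: with ATRA, MDM2 and FAS rose while SESN1 and PLK2 fell, as described below.

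ATRA changed all 9 genes relative to DMSO, in both directions. MDM2, GADD45A and FAS rose, and MDM4, TP53INP1, ZMAT3, PLK2, SESN1 and BTG2 fell. This is 9 of 9 called at an adjusted p under 0.05, 3 higher and 6 lower, where 48.7% of all tested genes were called, 21.3% higher and 27.4% lower. In all 9 genes the 3 ATRA libraries lay on 1 side of the 3 DMSO libraries, as they did in 56.6% of tested genes. The median change of the 9 genes was -0.34 on the log2 scale, against -0.03 over all tested genes. All 9 calls held in each of the 16 alternative settings, with a highest adjusted p of 0.044, for MDM4.

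**Figure D1:**
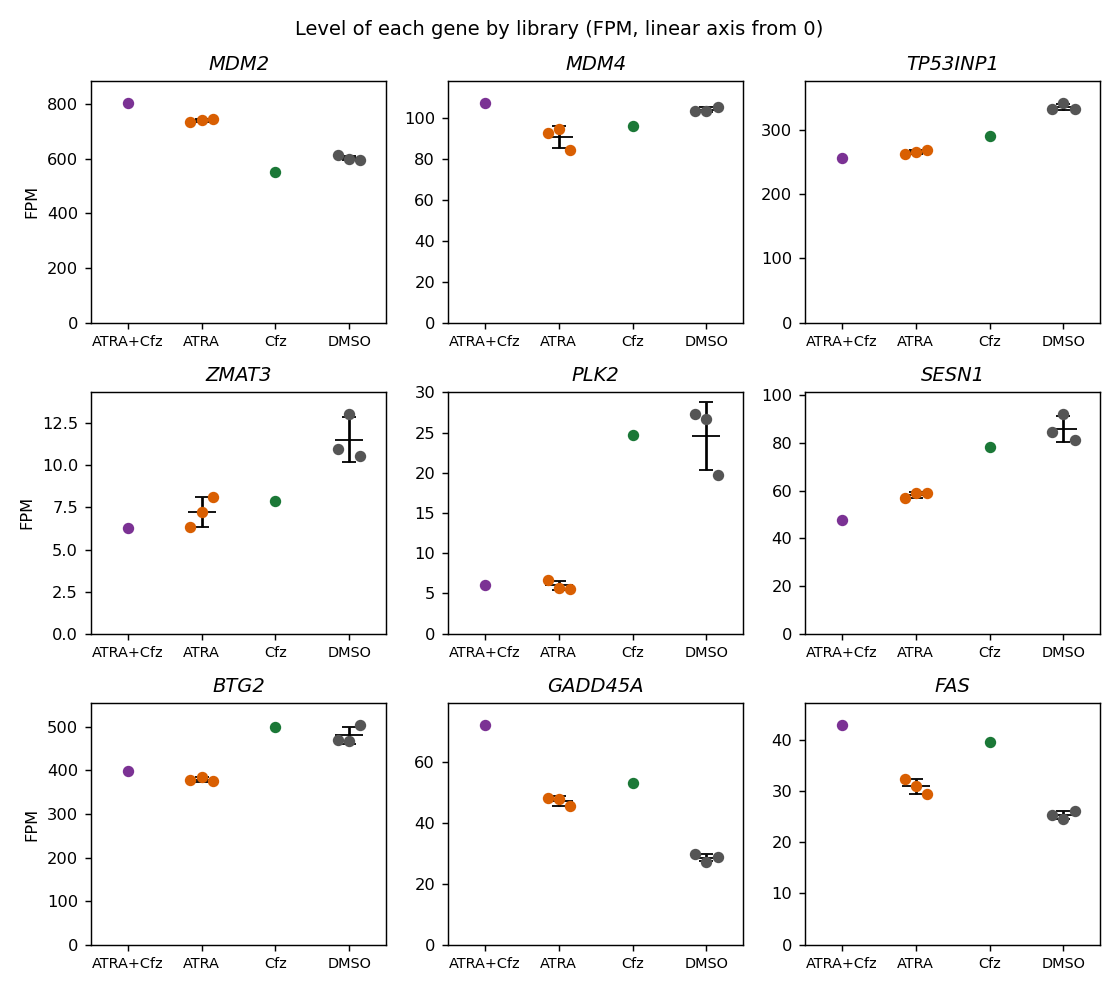
Level of each gene in FPM (vertical axes, linear from 0) by treatment. Points are libraries, and horizontal lines with bars are the mean and SD of the 3 ATRA and of the 3 DMSO libraries. MDM2, GADD45A and FAS are higher in ATRA+Cfz and in ATRA than in DMSO, and PLK2 sits near 6 FPM in both sets of ATRA-treated libraries, against 19.7 to 27.3 FPM in Cfz and DMSO.

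MDM2, the main ubiquitin ligase for p53, was read at 805 FPM in ATRA+Cfz, at 735, 744 and 745 FPM in ATRA, at 553 FPM in Cfz, and at 612, 601 and 597 FPM in DMSO. Both treatments with ATRA lay above every DMSO library, and the Cfz library lay below every one. It rose by 0.30 (log2 fold change, SE 0.031, adjusted p = 1.03e-05, limma) with ATRA and by 0.41 (SE 0.044, adjusted p = 1.05e-05) with ATRA+Cfz relative to DMSO. Against the Cfz library, the ATRA+Cfz library was higher by 0.54 (SE 0.054, adjusted p = 2.05e-05). The lower value in Cfz did not pass the test against DMSO (-0.13, 95% interval -0.22 to -0.03, adjusted p = 0.0565), but passed without DMSO 3 (-0.13, adjusted p = 0.00087), with the filter at 2 FPM (adjusted p = 0.0461) and with robust estimation (adjusted p = 0.0315). In the order ATRA+Cfz, ATRA, DMSO, Cfz, the neighbours ATRA and DMSO differed, while ATRA+Cfz and ATRA (0.12, adjusted p = 0.0631) did not pass the test. This last difference passed with median-ratio scaling, robust estimation, edgeR and DESeq2, at 0.12 to 0.16, and without DMSO 3.

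MDM4, a relative of MDM2 that binds and inhibits p53, had the smallest ATRA change of the 9 genes. Its level was 107 FPM in ATRA+Cfz, 92.7, 94.3 and 84.3 FPM in ATRA, 95.7 FPM in Cfz, and 103, 103 and 105 FPM in DMSO. The ATRA libraries were all below the DMSO libraries, and the ATRA+Cfz library was above all of both. MDM4 fell with ATRA by 0.20 (log2, SE 0.046, adjusted p = 0.00352), and ATRA+Cfz was higher than ATRA by 0.25 (log2, SE 0.065, adjusted p = 0.0146). ATRA+Cfz did not pass the test against DMSO (0.04, adjusted p = 0.609), nor did Cfz (-0.12, adjusted p = 0.221). No neighbours in its order, ATRA+Cfz, DMSO, Cfz and ATRA, passed the test.

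GADD45A, a growth arrest and DNA damage protein that binds cell-cycle and stress-kinase partners, had the largest rises of the 9 genes. It stood at 72.0 FPM in ATRA+Cfz, 48.3, 47.9 and 45.5 FPM in ATRA, 53.1 FPM in Cfz, and 29.7, 27.2 and 29.0 FPM in DMSO. No treated library overlapped the DMSO libraries, and ATRA+Cfz was above all others. GADD45A rose by 1.32 (log2, SE 0.073, adjusted p = 5.84e-08) with ATRA+Cfz, by 0.71 (SE 0.052, adjusted p = 5.1e-07) with ATRA and by 0.88 (SE 0.073, adjusted p = 1.28e-05) with Cfz, each relative to DMSO. ATRA+Cfz was also higher than Cfz by 0.44 (SE 0.090, adjusted p = 0.00333) and higher than ATRA by 0.60 (SE 0.073, adjusted p = 0.000131). In the order ATRA+Cfz, Cfz, ATRA, DMSO, the ATRA and Cfz neighbours alone did not pass the test (-0.17, adjusted p = 0.1). Of its relatives, GADD45B was measured at 78.5 FPM in ATRA+Cfz, 80.8 ± 1.8 FPM in ATRA, 94.8 FPM in Cfz and 88.5 ± 5.6 FPM in DMSO (SD, n = 3 each for ATRA and DMSO). Its call for ATRA (-0.13, adjusted p = 0.0453) was lost in 9 of the 16 alternatives. GADD45G was under 1 FPM in every library, and its calls for ATRA (0.54, adjusted p = 0.0416) and Cfz (0.93, adjusted p = 0.0312) were each lost in at least 1 alternative, the ATRA call in 7.

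FAS, the death receptor for FAS ligand, also rose with all 3 treatments. It was counted at 42.8 FPM in ATRA+Cfz, 32.3, 31.0 and 29.4 FPM in ATRA, 39.4 FPM in Cfz, and 25.2, 24.6 and 26.2 FPM in DMSO. The treated libraries were all above the DMSO libraries, and both libraries with Cfz were above the ATRA libraries. Relative to DMSO it rose by 0.75 (log2, SE 0.081, adjusted p = 1.28e-05) with ATRA+Cfz, by 0.28 (SE 0.057, adjusted p = 0.00161) with ATRA and by 0.63 (SE 0.081, adjusted p = 0.000284) with Cfz. ATRA+Cfz was higher than ATRA by 0.46 (SE 0.081, adjusted p = 0.00129), but its difference from Cfz (0.12, 95% interval -0.10 to 0.33, adjusted p = 0.42) did not pass. ATRA was lower than Cfz by 0.35 (log2 fold change -0.35, adjusted p = 0.00573). FADD, the adaptor that FAS recruits, was at 26.5 FPM in ATRA+Cfz, 20.7 ± 0.40 FPM in ATRA, 27.4 FPM in Cfz and 17.6 ± 1.2 FPM in DMSO (SD, n = 3 for ATRA and for DMSO). It rose by 0.58 with ATRA+Cfz, by 0.24 (adjusted p = 0.014) with ATRA and by 0.63 (adjusted p = 0.000907) with Cfz, relative to DMSO; the ATRA call was lost with DESeq2 and without DMSO 1.

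PLK2, a polo-like kinase of the early cell cycle and stress responses, had the largest change of the 9 genes, a fall in the libraries with ATRA. It was at 6.02 FPM in ATRA+Cfz, 6.67, 5.71 and 5.60 FPM in ATRA, 24.7 FPM in Cfz, and 27.3, 26.7 and 19.7 FPM in DMSO. The 4 ATRA-treated libraries lay far below the other 4, and within DMSO the third library was lowest. The lone libraries rest on 85 reads for ATRA+Cfz (exact Poisson 95% interval 4.80 to 7.43 FPM) and 377 reads for Cfz (22.3 to 27.4 FPM), which covers counting error only. PLK2 fell by 1.93 (log2, SE 0.18, adjusted p = 3.07e-06) with ATRA+Cfz and by 1.94 (SE 0.12, adjusted p = 1.88e-07) with ATRA relative to DMSO, and by 1.95 (SE 0.22, adjusted p = 4.48e-05) in ATRA+Cfz relative to Cfz. Cfz did not pass the test against DMSO (0.02, 95% interval -0.36 to 0.41, adjusted p = 0.942), and its sign turned without DMSO 3 (-0.12, adjusted p = 0.524). ATRA+Cfz and ATRA did not pass either (0.01, 95% interval -0.38 to 0.40, adjusted p = 0.978). The PLK2 levels thus lay in an upper and a lower pair, but both intervals leave room for a difference within a pair.

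Of the other polo-like kinases, PLK1, a mitotic kinase, fell by 0.83 on the log2 scale with ATRA+Cfz and by 0.65 with ATRA, at 51.7 FPM in ATRA+Cfz, 58.6 ± 0.53 FPM in ATRA, 77.0 FPM in Cfz and 92.4 ± 9.1 FPM in DMSO (SD, n = 3 for ATRA and for DMSO). PLK4, the kinase of centriole duplication, fell by 1.22 with ATRA+Cfz and by 1.13 with ATRA. Both also passed the test with Cfz relative to DMSO (PLK1 -0.26, adjusted p = 0.0488; PLK4 -0.35, adjusted p = 0.0417), calls that were lost with edgeR, with DESeq2 and without any 1 of the ATRA libraries. PLK3, a stress-induced kinase, passed against DMSO with ATRA+Cfz alone (-1.14, adjusted p = 0.00276). It was at 1.20 FPM in that library, on 17 reads, 2.50 ± 0.52 FPM in ATRA, 2.69 FPM in Cfz and 3.28 ± 0.59 FPM in DMSO.

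BTG2, an antiproliferative protein that promotes shortening of mRNA tails, was at 399 FPM in ATRA+Cfz, 377, 384 and 374 FPM in ATRA, 498 FPM in Cfz, and 470.2, 468 and 503 FPM in DMSO. The ATRA-treated libraries were all below the others, while Cfz lay within the DMSO range. BTG2 fell by 0.27 (log2, SE 0.052, adjusted p = 0.00108) with ATRA+Cfz and by 0.34 (SE 0.037, adjusted p = 1.21e-05) with ATRA relative to DMSO, and by 0.32 (SE 0.064, adjusted p = 0.0026) in ATRA+Cfz relative to Cfz. Neither Cfz against DMSO (0.05, adjusted p = 0.497) nor ATRA+Cfz against ATRA (0.07, adjusted p = 0.316) passed, although both passed without DMSO 3, at 0.09 (adjusted p = 0.0297) and 0.07 (adjusted p = 0.0427). Its relatives BTG1 and BTG3 fell with all 3 treatments: BTG1 by 0.77 with ATRA+Cfz, by 0.46 with ATRA and by 0.42 with Cfz, and BTG3 by 0.74, 0.46 and 0.30 in the same order. The BTG3 call for Cfz was lost with DESeq2. TOB1, a further antiproliferative relative, moved the other way, rising by 0.53 with ATRA+Cfz and by 0.38 with ATRA, and with Cfz it did not pass (0.15, adjusted p = 0.135). TOB2 fell by 0.21 with ATRA+Cfz (adjusted p = 0.0227) and by 0.26 with Cfz (adjusted p = 0.0195), calls that were lost with median-ratio scaling, edgeR and DESeq2, and with ATRA it did not pass (-0.08, adjusted p = 0.201).

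SESN1, a sestrin that restrains mTORC1 signalling and oxidative stress, was lowest in ATRA+Cfz. Its levels were 47.7 FPM in ATRA+Cfz, 56.8, 58.9 and 59.1 FPM in ATRA, 78.3 FPM in Cfz, and 84.5, 92.1 and 81.1 FPM in DMSO. None of the 4 groups overlapped. SESN1 fell by 0.84 (log2, SE 0.072, adjusted p = 1.94e-06) with ATRA+Cfz and by 0.55 (SE 0.051, adjusted p = 3.45e-06) with ATRA relative to DMSO. ATRA+Cfz was lower than Cfz (-0.71, SE 0.088, adjusted p = 0.000113) and than ATRA (-0.28, SE 0.072, adjusted p = 0.0114), the second of which was lost with DESeq2. Cfz against DMSO did not pass (-0.13, adjusted p = 0.22) except without DMSO 3 (-0.17, adjusted p = 0.0362), and ATRA was lower than Cfz (-0.42, adjusted p = 0.000796). SESN2, also a p53 target and a stress-induced sestrin, moved the opposite way. It was at 29.8 FPM in ATRA+Cfz, 17.9, 16.3 and 17.2 FPM in ATRA, 12.2 FPM in Cfz, and 9.79, 10.4 and 9.31 FPM in DMSO, a rise of 1.55 with ATRA+Cfz and of 0.77 with ATRA on the log2 scale, while Cfz did not pass (0.30, adjusted p = 0.0756). SESN3, the third sestrin, fell by 0.26 with ATRA+Cfz, by 0.68 with ATRA and by 0.25 (adjusted p = 0.012) with Cfz; DESeq2 did not call the falls with ATRA+Cfz and Cfz.

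TP53INP1, a stress-induced nuclear protein that promotes p53 activity and autophagy, was at 257 FPM in ATRA+Cfz, 262, 267 and 269 FPM in ATRA, 291 FPM in Cfz, and 333, 342 and 333 FPM in DMSO. Every treated library was below the DMSO libraries. It fell by 0.39 (log2, SE 0.045, adjusted p = 2.18e-05) with ATRA+Cfz, by 0.34 (SE 0.032, adjusted p = 4.02e-06) with ATRA and by 0.21 (SE 0.045, adjusted p = 0.00584) with Cfz relative to DMSO. The Cfz call was lost with DESeq2 (-0.15), and its adjusted p ran from 9.35e-05 to 0.0896 over the alternatives. ATRA+Cfz was lower than Cfz (-0.18, adjusted p = 0.0319), a call that was lost in 6 alternatives, among them each that left out 1 of the ATRA libraries. ATRA+Cfz against ATRA (-0.05, adjusted p = 0.474) did not pass, and ATRA was lower than Cfz (-0.13, adjusted p = 0.0443). TP53INP2, its relative in autophagy, fell with ATRA+Cfz (-1.13, adjusted p = 0.000204) and with ATRA (-0.63, adjusted p = 0.00123), and with Cfz it did not pass (-0.29, adjusted p = 0.265).

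ZMAT3, a zinc finger protein that binds RNA, was among the lowest in reads, at 6.30 FPM in ATRA+Cfz, 6.37, 7.22 and 8.15 FPM in ATRA, 7.87 FPM in Cfz, and 11.0, 13.0 and 10.6 FPM in DMSO. Every treated library was below the DMSO libraries, and Cfz lay within the ATRA range. The lone libraries rest on 89 reads for ATRA+Cfz (exact Poisson 95% interval 5.06 to 7.75 FPM) and 120 reads for Cfz (6.53 to 9.41 FPM). It fell by 0.82 (log2, SE 0.17, adjusted p = 0.00167) with ATRA+Cfz and by 0.64 (SE 0.12, adjusted p = 0.000904) with ATRA relative to DMSO. Its fall with Cfz (-0.52, SE 0.17, adjusted p = 0.044) was lost in 7 alternatives, among them edgeR, DESeq2 and leaving out DMSO 1, DMSO 2 or ATRA 2, with adjusted p up to 0.214. The 3 treatments did not pass the test against each other, ATRA+Cfz against Cfz giving -0.30 (95% interval -0.75 to 0.15, adjusted p = 0.31) and ATRA+Cfz against ATRA -0.18 (adjusted p = 0.461). ZMAT2, a relative that acts in splicing, rose by 0.21 (adjusted p = 0.00841) with ATRA+Cfz and by 0.27 (adjusted p = 0.00536) with Cfz, and with ATRA it did not pass (0.10, adjusted p = 0.0551).

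**Figure D2:**
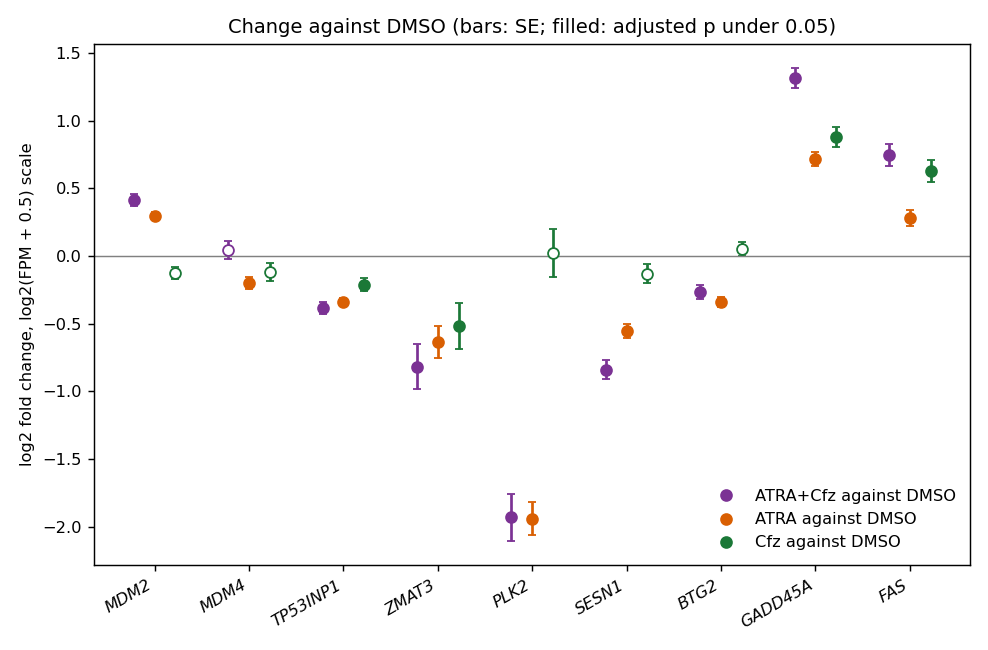
Log2 fold change against DMSO on the log2(FPM + 0.5) scale (vertical axis) for each gene, with ATRA+Cfz, ATRA and Cfz from left to right. Points are estimates of the limma fit, bars are their SE, and filled points have an adjusted p under 0.05. PLK2 is near -1.9 with both treatments that hold ATRA and near 0 with Cfz, and GADD45A is above 0.7 with all 3.

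Cfz alone changed 4 of the 9 genes. Relative to DMSO, GADD45A and FAS rose, TP53INP1 and ZMAT3 fell, and 5 did not pass the test. Across all tested genes 24.9% were called, 7.94% higher and 17% lower, and the members' median change was -0.12, against -0.08 over all genes. The count depended on the setting: 7 were called without DMSO 3 (3 higher and 4 lower, where 34.4% of all genes were called), and 2, GADD45A and FAS, with DESeq2 (where 12.7% were called).

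ATRA after Cfz called 8 of the 9 genes relative to DMSO, 3 higher and 5 lower, with MDM4 the exception. The share over all tested genes was 50.6%, 20% higher and 30.5% lower, and the median of the members was -0.27, against -0.05 over all genes. Relative to Cfz, ATRA+Cfz called 6 of the 9, with MDM2 and GADD45A higher and TP53INP1, PLK2, SESN1 and BTG2 lower, where 30.4% of all genes were called, 12.8% higher and 17.6% lower. Relative to ATRA, it called 4 of the 9, with MDM4, GADD45A and FAS higher and SESN1 lower, where 30.9% of all genes were called, 10.6% higher and 20.2% lower. ATRA set directly against Cfz, a comparison that orders the levels, called 6 of the 9, with MDM2 higher and TP53INP1, PLK2, SESN1, BTG2 and FAS lower, where 36.2% of all genes were called, 18.9% higher and 17.2% lower.

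The effect of ATRA could be set side by side with and without the Cfz pulse, in comparisons that share no library. MDM2 rose by 0.54 after Cfz and by 0.30 without it, a difference of 0.24 (SE 0.062, adjusted p = 0.0654). For MDM4 the ATRA effect was 0.16 after Cfz, which did not pass, and -0.20 without it, a difference of 0.36 (SE 0.092, adjusted p = 0.0654). The GADD45A effect was 0.44 after Cfz and 0.71 without it, a difference of -0.28 (SE 0.10, adjusted p = 0.19). None of the 9 differences passed with limma, edgeR or DESeq2, where limma called 2.3% of all genes, 0.992% higher and 1.31% lower. At an unadjusted p under 0.05, 4 did, MDM2, MDM4, TP53INP1 and GADD45A, against 18.1% of all genes. MDM2 (adjusted p = 0.0344) and MDM4 (adjusted p = 0.0493) passed with robust estimation, where 3.19% of all genes were called. Without DMSO 3, MDM2 (0.25, adjusted p = 0.000316), MDM4 (0.35, adjusted p = 0.00825) and TP53INP1 (0.17, adjusted p = 0.0218) passed, where 12.5% of all genes did.

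**Figure D3:**
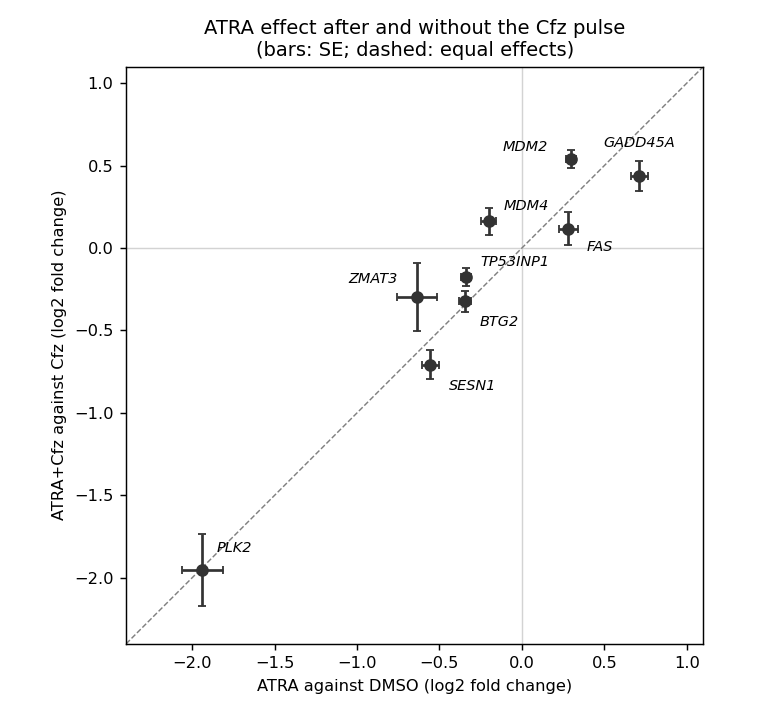
ATRA effect after the Cfz pulse (vertical axis, ATRA+Cfz against Cfz) and without it (horizontal axis, ATRA against DMSO), both as log2 fold changes. Points are the 9 genes, bars are SE, and the dashed line marks equal effects. PLK2 lies near the line, at -1.95 after Cfz and -1.94 without it, and MDM2 and MDM4 lie above it.

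A list of 44 further genes reported as activated by p53, of which 40 were tested, had more members lower than higher with each treatment. With ATRA, 7 were higher, 18 lower and 15 not called relative to DMSO, so 62.5% of the list was called, where 48.7% of all tested genes were called, 21.3% higher and 27.4% lower. The filter at 2 FPM, which leaves out low genes, raised the share over all genes to 59% for ATRA. It gave 33.3% for Cfz and 60.6% for ATRA+Cfz relative to DMSO. For ATRA+Cfz it gave 39% relative to Cfz and 40.4% relative to ATRA. The list had a median change of -0.19 against -0.03 over all tested genes. CDKN1A, the inhibitor p21 that halts the cell cycle, was at 62.6 FPM in ATRA+Cfz, 57.7, 57.6 and 55.0 FPM in ATRA, 23.7 FPM in Cfz, and 20.8, 21.1 and 21.3 FPM in DMSO. It had the largest rise of the list with ATRA (1.41, SE 0.049, adjusted p = 1.81e-09), and the ATRA-treated libraries did not overlap the others. SESN2, NINJ1 (0.72) and CCNG1 (0.57), a cyclin that acts on the MDM2 loop, followed it. KITLG (-1.60), PANK1 (-1.18), an enzyme of coenzyme A synthesis, CMBL (-1.05) and PIDD1 (-0.82), a scaffold for caspase-2, had the largest falls. KITLG, the ligand of the receptor KIT, was near the 3-read floor in ATRA+Cfz, at 0.282 FPM there, 0.740 ± 0.093 FPM in ATRA, 3.22 FPM in Cfz and 3.32 ± 0.86 FPM in DMSO (SD, n = 3 for ATRA and for DMSO).

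With Cfz, 2 of the 40 were higher, 14 lower and 24 not called relative to DMSO, 40% of the list, where 24.9% of all tested genes were called, 7.94% higher and 17% lower. The list median was -0.14, against -0.08 over all genes. The gene TNFRSF10A, a death receptor for TRAIL, rose by 0.61 (SE 0.068, adjusted p = 0.000119), at 62.4 FPM in ATRA+Cfz, 46.8, 46.5 and 46.6 FPM in ATRA, 73.1 FPM in Cfz, and 49.8, 48.6 and 45.1 FPM in DMSO. RAP2B rose by 0.20 (adjusted p = 0.0372), a call lost in 4 alternatives. PANK1 (-0.89), PIDD1 (-0.77) and the BH3-only death genes BBC3 (-0.69) and PMAIP1 (-0.63) fell; DESeq2 called 7 of the list, where it called 12.7% of all genes, and did not call PANK1, BBC3 or PMAIP1, and PMAIP1 was also lost without DMSO 2.

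With ATRA+Cfz, 6 of the 40 were higher, 20 lower and 14 not called relative to DMSO, 65% of the list, where 50.6% of all tested genes were called, 20% higher and 30.5% lower. The list median was -0.34, against -0.05 over all genes. SESN2 (1.55), CDKN1A (1.55), NINJ1 (0.59) and TNFRSF10A (0.38) had the largest rises, and KITLG (-2.26), PANK1 (-1.79), PIDD1 (-1.76) and PCNA (-1.65) the largest falls. PCNA, the sliding clamp of DNA replication and repair, was at 104 FPM in ATRA+Cfz, 187, 190.3 and 195 FPM in ATRA, 241 FPM in Cfz, and 318, 321 and 350 FPM in DMSO, with no overlap between the 4 groups. Relative to Cfz, 5 were higher, 14 lower and 21 not called, 47.5% of the list, where 30.4% of all genes were called, led by CDKN1A (1.38) and SESN2 (1.26) and by KITLG (-2.25), PCNA (-1.20), CMBL (-1.01) and PIDD1 (-0.98). Relative to ATRA, 2 were higher, SESN2 (0.78) and TNFRSF10A (0.42), 13 were lower and 25 not called, 37.5% of the list, where 30.9% of all genes were called. The falls were led by PIDD1 (-0.94), PCNA (-0.87), PLK3 (-0.80, adjusted p = 0.0327) and FDXR (-0.69, adjusted p = 0.0255). The PLK3 and FDXR calls were each lost in 4 or more alternatives. In the lone ATRA+Cfz library, PLK3 rested on 17 reads, FDXR on 26 and PANK1 on 22. Only PCNA passed the test of the difference between the ATRA effects (-0.42, SE 0.083, adjusted p = 0.0316), and this was lost without DMSO 1, without DMSO 2 and without any 1 of the ATRA libraries.

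**Figure D4:**
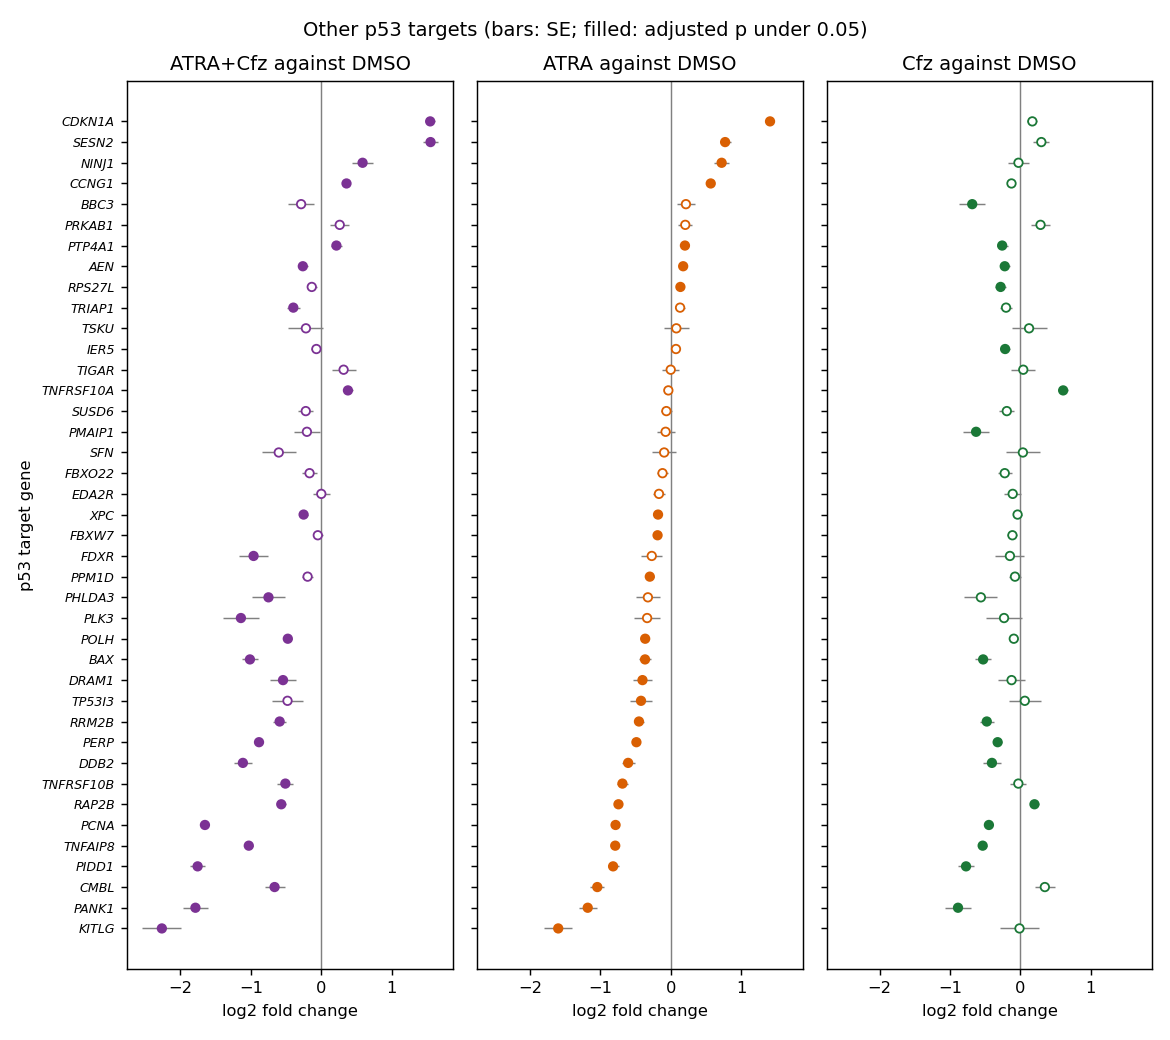
Log2 fold change against DMSO of the 40 tested genes of the p53 target list (horizontal axes), in panels for ATRA+Cfz, ATRA and Cfz from left to right. Points are estimates, bars are SE, filled points have an adjusted p under 0.05, and genes are ordered by their ATRA value. CDKN1A stands at 1.55 with ATRA+Cfz, 1.41 with ATRA and 0.17 with Cfz, where it did not pass.

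Of 24 listed genes that act on p53 or beside it, 22 were tested. Relative to DMSO, ATRA+Cfz gave 6 higher and 7 lower (59.1% of those tested, where 50.6% of all genes were called). ATRA gave 7 higher and 10 lower (77.3%, where 48.7% of all genes were called), and Cfz gave 2 higher and 3 lower (22.7%, near the 24.9% of all genes). With the filter at 2 FPM, the shares over all genes were 60.6% for ATRA+Cfz, 59% for ATRA and 33.3% for Cfz. For ATRA+Cfz that filter gave 39% relative to Cfz and 40.4% relative to ATRA. The list was not recounted under it, and only the ATRA share of the list lies above the share over all genes so filtered. TP73, a relative of p53, fell furthest with each treatment, at 3.12 FPM in ATRA+Cfz, 6.04, 7.02 and 5.55 FPM in ATRA, 12.4 FPM in Cfz, and 18.7, 18.6 and 18.1 FPM in DMSO. Its log2 change was -2.39 with ATRA+Cfz, -1.51 with ATRA and -0.55 with Cfz, the last lost with DESeq2. CHEK1, the checkpoint kinase of DNA replication, fell by 1.24 with ATRA+Cfz, by 0.77 with ATRA and by 0.34 with Cfz, and SIRT1, a deacetylase that acts on p53, by 0.78, 0.43 and 0.41 in the same order. ATM, the kinase that signals DNA breaks to p53, rose by 0.96 with ATRA+Cfz and by 0.85 with ATRA. Its levels were 156 FPM in ATRA+Cfz, 145, 145 and 146 FPM in ATRA, 81.8 FPM in Cfz, and 92.9, 88.4 and 63.0 FPM in DMSO. The third DMSO library was lowest, so both ATM rises are smaller against the other DMSO libraries. USP7, a deubiquitinase that stabilises MDM2 and p53, rose with ATRA+Cfz (0.30), with ATRA (0.09, adjusted p = 0.0445) and with Cfz (0.20), and the ATRA call was lost in 7 alternatives. TP53BP1, a DNA break adaptor, rose with ATRA+Cfz (0.25) and with Cfz (0.25), but fell with ATRA (-0.22, adjusted p = 0.00184), which was lost with DESeq2, and it was higher in ATRA+Cfz than in ATRA (0.47). HIPK2, a kinase of p53, rose by 0.49 with ATRA+Cfz, a call lost with robust estimation, and by 0.30 with ATRA (adjusted p = 0.0477), a call lost in 6 alternatives. HIPK2 levels were 344 FPM in ATRA+Cfz, 299, 305 and 300 FPM in ATRA, 276 FPM in Cfz, and 279, 277 and 191 FPM in DMSO. The third DMSO library was again lowest, and both rises are smaller against the other DMSO libraries. RCHY1, a ubiquitin ligase for p53, rose by 0.30 with ATRA. Relative to Cfz, ATRA+Cfz gave 2 higher and 6 lower (36.4%, where 30.4% of all genes were called), with ATM (0.93, lost with robust estimation), RPL5 (0.25), TP73 (-1.83), CHEK1 (-0.89) and DAXX (-0.54) furthest, and relative to ATRA 2 higher and 6 lower (36.4%, where 30.9% of all genes were called), with TP73 (-0.88), CHEK1 (-0.47) and CHEK2 (-0.37, lost with DESeq2) lowest.

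The genes whose pattern over the 8 libraries was most like that of a member were found among 12210 candidates, by the root mean square difference of log2(FPM + 0.5) about each gene's own mean. MDM2 was closest to HBP1 (0.029), TRMT1L (0.030) and PREPL (0.030), where its own spread about its mean was 0.187. MDM4, with a small spread of its own (0.109), was closest to EDA2R (0.036), RBM33 (0.042) and ZNF322 (0.048). Of these only EDA2R is on the p53 target list, and it did not pass the test against DMSO with any treatment. GADD45A was closest to GLRX (0.023), ZFAND5 (0.068) and the proteasome subunit PSMB7 (0.069). For FAS the closest were TBCA (0.041), MPHOSPH10 (0.049) and the mitochondrial chaperone HSPA9 (0.051), and for PLK2 they were FN1 (0.142), PTPRD (0.146) and NEGR1 (0.148), against its own spread of 0.982. TP53INP1 was closest to MED14 (0.027), ZMAT3 to LYSMD4 (0.051) and BTG2 to CAP1 (0.025). Among the members themselves, the closest pair was TP53INP1 and BTG2 (0.099), and the farthest was PLK2 and GADD45A (1.34). With 4 treatments behind the 8 libraries, many genes share each pattern, and likeness is given as a description.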

How the data were processed

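The authors deposited FPM, a CPM unit in which each column sums to 1000000, for each of 32 lanes, which are 4 lanes of 8 libraries. Per the submitters' processing notes, the tools were fastp 0.20.0, kallisto 0.46.2 and a DESeq2 release without a version. With build, annotation and strand setting not given in the sources used here, overlapping genes may share reads. Whole reads were recovered for 100% of values within 0.01 read. The table has 24402 lines, 143 gene IDs standing on more than 1 identical line, each used once. Symbols came from the table for 17006 IDs 7163 were looked up in a gene name table, and 80 had none. Lanes were averaged because they differed little beyond sampling noise (chi-square per degree of freedom 1.183 to 1.241; 0 of 72 lane tests of the 9 genes passed after adjustment). Depth was 14136937 reads in ATRA+Cfz, 15876106, 14381173 and 15699575 in ATRA, 15245884 in Cfz, and 17155331, 16567946 and 14945279 in DMSO. A floor of 3 reads per library is 0.175 to 0.212 FPM, and such floors and the Poisson intervals reflect counting error alone.

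Tests used limma 3.58.1 (R 4.3.3), its prior variance following the mean level, on log2(FPM + 0.5), which understates the change of low genes, for genes with a mean of the 4 group means of at least 0.5 FPM. The 8 libraries were fitted together (residual degrees of freedom 4, prior 7.21). The p-values are two-sided and were adjusted by Benjamini-Hochberg over all tested genes, and adjusted p under 0.05 counts as a call. Alternatives were pseudocounts of 0.1 and 1 FPM, no filter and a filter at 2 FPM, median-ratio scaling, robust empirical Bayes estimation, a replicate block, the DMSO and ATRA libraries alone, edgeR 4.0.16 quasi-likelihood and DESeq2 1.42.0 on recovered reads, and leaving out each DMSO or ATRA library. The comparison of ATRA with Cfz serves to order levels and was not run under the alternatives. The 9 genes and the lists were chosen with earlier results of these data known. Named list genes are, per comparison, the called genes with at least 2 FPM in the higher group and the largest change, up to 4 in each direction for p53 targets and up to 3 for regulators; relatives stand beside their member; a few further values of genes so named in another comparison are repeated. Some listed genes are not reported here.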

Additional observations from a re-analysis of the deposited data

How the results depend on the processing

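Of the changes of the 9 genes under all alternatives, 776 kept their direction and their side of the threshold, 16 passed only under the alternative, 15 no longer passed, and 9 changed sign. Every sign change was of PLK2 or BTG2 where the reported value did not pass. PLK2 ranged from -0.124 to 0.104 for Cfz against DMSO, from -0.0343 to 0.0824 for ATRA+Cfz against ATRA, and from -0.0956 to 0.133 for the difference between ATRA effects when 1 library was left out; the last was 0.00281 with edgeR. For BTG2 that difference ranged from -0.0133 to 0.0391 when 1 library was left out, and was -0.00965 with median-ratio scaling and -0.00849 with DESeq2. Leaving out 1 library, the 9 genes gave 9 calls for ATRA, 8 for ATRA+Cfz and 3 to 7 for Cfz against DMSO, 5 to 6 for ATRA+Cfz against Cfz, 4 to 6 against ATRA, and 0 to 3 for the difference between ATRA effects, which robust estimation put at 2. DESeq2 called 2 for Cfz. For the p53 target list DESeq2 called 7, against 16 reported, for Cfz, and 8, against 15, for ATRA+Cfz against ATRA; leaving out 1 library gave 0 to 4, against 1, for the difference between ATRA effects. The counts of 7, 3 and 4 and the 1985 calls given next came without DMSO 3, and the cause was not tested. Over all genes, DESeq2 called 2013 against 3948 reported for Cfz, 3118 against 4818 for ATRA+Cfz against Cfz, and 2886 against 4884 for ATRA+Cfz against ATRA, and the difference between ATRA effects gave 2 to 1985 calls, against 364, when 1 library was left out. Among the calls for Cfz against DMSO, 31.8% were higher, against 46.4% with median-ratio scaling, 42.2% with edgeR and 53.1% with DESeq2; the share was 34.4% for ATRA+Cfz against ATRA, against 45.3% with edgeR, and 43.1% for the difference, against 27.5% and 22.6% with median-ratio scaling and DESeq2. Replicate numbers were not taken as pairs in the main fit. The deviations from group means of same-numbered ATRA and DMSO libraries had correlations of -0.00584, -0.00206 and 0.00555. Such values show no shared signal, but cannot tell whether those libraries were handled together, and the labels do not say. With the replicate block the 9 genes gave 9, 8 and 4 calls for ATRA, ATRA+Cfz and Cfz against DMSO. The target list gave 24, 26 and 13. The Cfz and ATRA+Cfz values rest on 1 library each, and ZMAT3 and PLK2 there on as few as 89 and 85 reads.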
